A study of Mus musculus with 6 samples.

Results

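Cluster 4 is a group of activated CD8 T cells from mouse bladder tumours that carried cytokine and chemokine transcripts. Its members are the 2442 cells, of 26698 in all (9.15%), to which the depositors' clustering gave the number 4, and they held 9.78% of all unique molecular identifiers (UMIs, counted transcripts). The number was given from expression, with settings not given in the sources used here, so every difference between cluster 4 and another cluster below is a description and carries no test, while a difference between the sexes was tested, since sex is no part of the rule that chose the cells.

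Male and female wild-type C57BL/6 mice carried subcutaneous MB49 tumours, which were taken 10 days after inoculation. MB49 is a mouse urothelial carcinoma line. The hosts were 6 weeks old when inoculated and are listed as 6 to 8 weeks old, and no allele or drug was added in either sex. Digested tumours were sorted for live CD8+ CD3+ cells without CD4, a gate that removes tumour and other immune cells, and these were sequenced with 10x Genomics 3' chemistry. There were 3 male and 3 female biological replicates. Whether a replicate is 1 mouse or a pool is not stated, so p-values between the sexes measure the spread between these samples.

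A CD8 T cell whose antigen receptor is engaged opens a fast transcriptional programme. Calcium-driven NFAT factors, with AP-1 and NF-kB factors, switch on genes of secreted proteins such as IL-2, interferon gamma and chemokines, along with immediate targets such as the Nr4a and Egr factors, while the factor Myc raises the genes for building ribosomes and for growth metabolism. In tumours, lasting stimulation leads CD8 T cells into exhaustion, in which inhibitory receptors such as PD-1 (gene Pdcd1) stay high and the capacity to make IL-2 is known to be lost early.

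Each of the 6 libraries held cluster 4 cells, with 198 at the lowest, 423 at the median and 703 at the highest. Their sums held between 2311984 and 6922786 UMIs, with a median of 9648 UMIs and 2652 genes per cell and a median mitochondrial share of 4.05%. Cluster 0, the largest cluster with 4869 cells and rich in exhaustion genes, had a median of 9163 UMIs per cell. Of all barcodes, 84 occurred under more than 1 library, and 15 cluster 4 cells carried such a barcode. Leaving those cells out changed no call between the sexes. Cd8a, the CD8 alpha chain, was detected in 95.1% of cluster 4 cells and Cd8b1, the beta chain, in 95.4%. Cd4 had 2 UMIs in the whole cluster. Markers of myeloid cells, summed over 18 genes, came to 25.1 to 58.5 counts per 1000000 UMIs (CPM) across libraries, those of tumour epithelium to 2.38 to 9.52 CPM, and Krt7, Krt14, Krt17 and Krt19 stood at 0.

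The genes given with the cluster marked it in every library. Il2 encodes the T cell growth factor IL-2 and lies on chromosome 3 (37120523 to 37125959, minus strand, mm10, overlapping Adad1 on the other strand). Il2 stood at 104 CPM in the lowest, 330.2 CPM in the median and 548 CPM in the highest library of cluster 4, against 1.68, 2.59 and 3.59 CPM in cluster 0. No library of cluster 0 came near the lowest library of cluster 4.

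Ccl3 and Ccl4 lie beside each other on chromosome 11 (83647844 to 83649355 and 83662584 to 83664683) and encode inflammatory chemokines. Ccl4 stood at 12329.5, 16588 and 18818 CPM in the lowest, median and highest library of cluster 4, against 1496, 1933 and 2927 CPM in cluster 0. Ccl3 stood at 2485, 4379 and 6717 CPM in cluster 4, against 404, 698 and 1647 CPM in cluster 0. Neither chemokine overlapped between the clusters. Rrs1, a ribosome assembly factor on chromosome 1, stood at 70.9 to 86.5 CPM in cluster 4 and at 13.97 to 20.9 CPM in cluster 0.

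**Figure D1:**
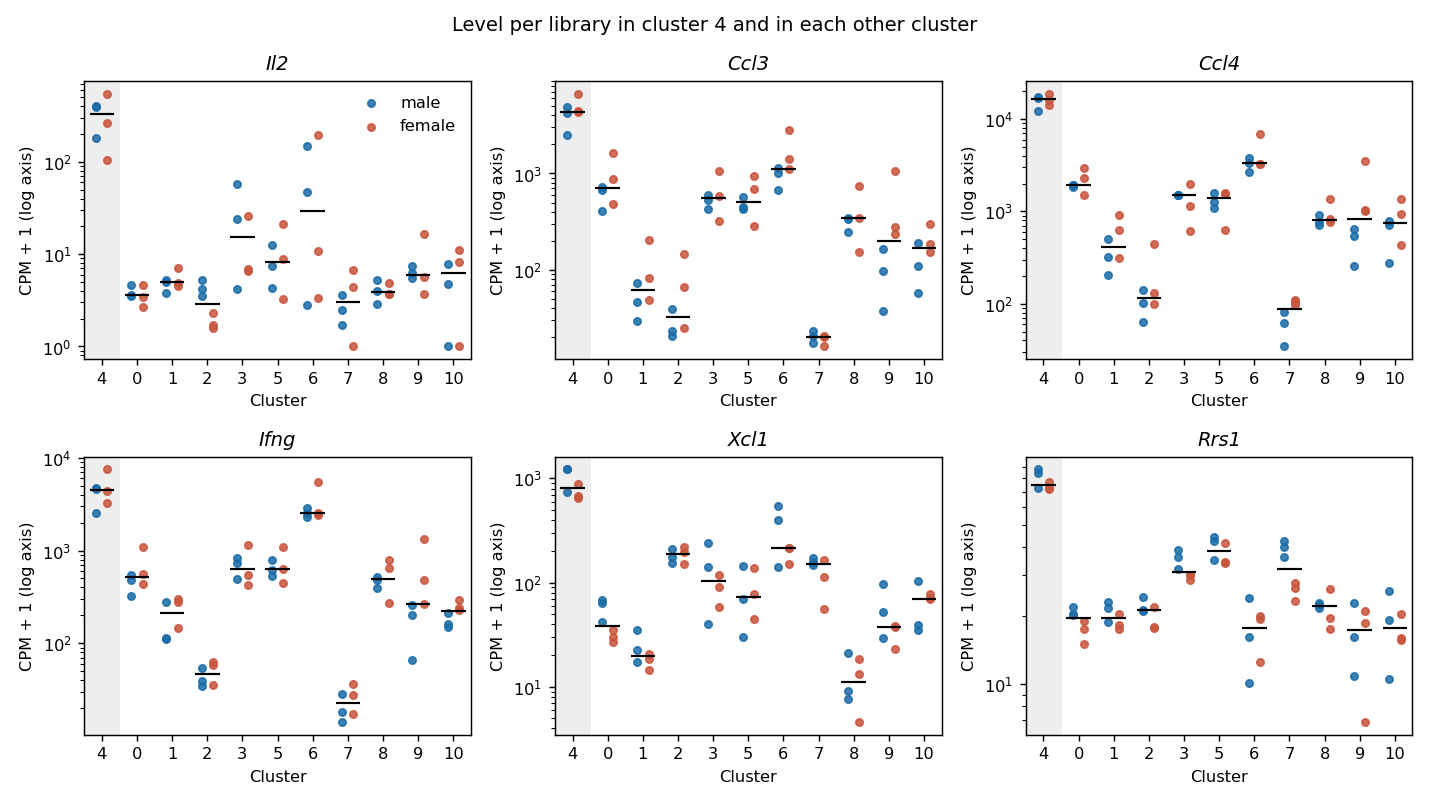
Level of 6 genes in each library (points, CPM + 1 on a log axis, blue for male and red for female hosts) in cluster 4 and in each other cluster, with the median over 6 libraries as a bar. The medians of cluster 4 (Il2 330.2 CPM, Ccl4 16588 CPM, Rrs1 73.9 CPM) are above those of every other cluster, and cluster 6 is second for every gene drawn but Rrs1.

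The second level for 5 of these 6 genes belonged to cluster 6, a cluster with a median of 1742 UMIs per cell and 30.0% mitochondrial UMIs, as the plot of levels by cluster shows. Its median was 28.1 CPM for Il2, with libraries from 1.83 to 195 CPM that ran into the range of cluster 4, and 2549 CPM for Ifng. Averaged over the 6 libraries, Il2, Ccl3, Ccl4 and Xcl1 were at least 2-fold higher in cluster 4 than in cluster 6, although in male library 1 Il2 stood at 179.9 CPM in cluster 4 and 146 CPM in cluster 6. Ifng stood at 2529 to 7513 CPM in cluster 4 and 2279 to 5545 CPM in cluster 6, which overlap, and it was less than 2-fold higher on average. Cluster 7, in which Tcf7, a factor of naive and memory T cells, was detected in 86.6% of cells, was lowest for Ccl3 with a median of 19.4 CPM.

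Promoter sequences are given here for secreted genes that set the cluster apart, because NFAT acts on such promoters. They come from RefSeq (build GRCm38.p6), run 5′ to 3′ on the gene's own strand from 250 bases before the start of transcription to 50 after it, and capitals mark the NFAT core GGAAA on either strand (TTTCC where it lies on the other strand). Il2 is at chr3:37125905-37126204 (minus), Ccl3 at chr11:83649329-83649628 (minus), Ifng at chr10:118440796-118441095 (plus) and Xcl1 at chr1:164935473-164935772 (minus). Ccl4, Rrs1, Myc and Srm are named only.
Il2: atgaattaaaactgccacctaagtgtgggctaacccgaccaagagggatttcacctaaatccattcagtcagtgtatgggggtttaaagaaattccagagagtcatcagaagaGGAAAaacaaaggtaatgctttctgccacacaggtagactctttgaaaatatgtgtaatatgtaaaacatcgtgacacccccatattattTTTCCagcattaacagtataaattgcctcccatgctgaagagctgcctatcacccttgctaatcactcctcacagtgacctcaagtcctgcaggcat
Ccl3: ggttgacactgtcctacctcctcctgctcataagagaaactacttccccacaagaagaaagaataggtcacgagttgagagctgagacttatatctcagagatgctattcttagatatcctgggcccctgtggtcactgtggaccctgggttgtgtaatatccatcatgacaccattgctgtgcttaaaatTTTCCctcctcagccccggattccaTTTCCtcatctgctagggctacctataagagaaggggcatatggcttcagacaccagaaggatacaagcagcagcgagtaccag
Ifng: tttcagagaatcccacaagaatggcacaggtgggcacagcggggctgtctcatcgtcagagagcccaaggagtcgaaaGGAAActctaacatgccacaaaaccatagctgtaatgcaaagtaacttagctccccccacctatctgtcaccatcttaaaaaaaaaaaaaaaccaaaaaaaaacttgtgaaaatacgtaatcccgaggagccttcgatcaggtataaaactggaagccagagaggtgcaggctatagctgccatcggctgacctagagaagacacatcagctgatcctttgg
Xcl1: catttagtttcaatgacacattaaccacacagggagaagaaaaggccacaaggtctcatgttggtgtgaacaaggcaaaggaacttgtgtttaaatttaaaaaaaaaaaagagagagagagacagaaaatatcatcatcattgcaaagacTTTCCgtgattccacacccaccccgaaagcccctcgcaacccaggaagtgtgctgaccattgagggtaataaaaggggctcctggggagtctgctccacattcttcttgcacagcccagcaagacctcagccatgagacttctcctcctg
Il2 and Ccl3 each held 2 cores in the window, and Ifng and Xcl1 each held 1. GGAAA is short and was found in 61.3% of 32851 promoters of the same length, against 91.3% of 23 promoters of listed cytokine genes and 83.3% of 12 promoters of listed chemokine genes. For listed receptor response genes it was in 66.7% of 24 promoters, close to all promoters. The same share, 66.7% of 42, held for ribosome biogenesis genes, and 52.6% of 38 for Myc target genes. The AP-1 motif TGANTCA was in 17.4% of the cytokine, 25% of the chemokine and 8.33% of the receptor response promoters. It was in 7.81% of all promoters and in none of the 4 shown. A match is a description of letters and not a bound site.

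Set against cluster 0, the most similar cluster, cluster 4 had 448 genes called higher and 178 called lower, of 7272 with a mean of at least 10 CPM in either, which are the genes called measured below. A gene was called when its log2(CPM + 1) in cluster 4 minus that in cluster 0, taken within each library, averaged at least 1 in size and had the same sign in all 6 libraries. These calls are 6.16% higher and 2.45% lower of the genes compared, which is the background for each list below. No such share over all genes is given for library ranges that do not overlap. Those ranges therefore describe the single genes named. With every cell thinned to 3000 UMIs, the split was 481 higher and 313 lower. The mean size of the log2 difference was smallest against cluster 0 (0.44), followed by cluster 5 (0.46), and largest against cluster 6 (1.02).

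Secreted products led the genes that were higher in cluster 4. Of 14 listed cytokine genes measured, 5 were called higher and 2 lower, with a median log2 difference of 0.36 against -0.04 over all genes. Over 13 alternative settings (minimums, pseudocounts, cell sets, scaling and libraries left out) the cytokine median ran from 0.12 to 0.90. The cytokine calls ran from 3 to 7 higher and from 2 to 3 lower. Of 7 measured chemokine genes, 5 were called higher and 0 lower, with a median of 1.76. Over the same settings the chemokine median ran from 1.28 to 2.18, with 4 to 6 called higher. The calls include Il2, Ccl3 and Ccl4, which were given with the cluster, so the counts are not independent of how it was marked. Il2 had the largest difference of any gene called (log2 difference 6.23 ± 0.63, SD over 6 libraries, higher in 6 of 6). The other members went different ways, as follows.

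Ifng, the main activating cytokine of CD8 T cells, stood at 2529 to 7513 CPM in cluster 4 and 320 to 1094 CPM in cluster 0 (log2 difference 3.00 ± 0.30). Xcl1, which attracts cross-presenting dendritic cells, stood at 647 to 1221 CPM in cluster 4 and 25.7 to 67.5 CPM in cluster 0 (4.38 ± 0.48). Tnf stood at 30.0 to 92.7 CPM in cluster 4 and 12.6 to 27.0 CPM in cluster 0 (1.30 ± 0.34). For all 3 the ranges of the clusters did not overlap, and the genome annotation places Gm49751 over Ifng and Gm20743 over Xcl1.

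A few members varied widely between libraries. Il3, a growth factor for myeloid precursors, had 1358 UMIs in cluster 4 and 5 in cluster 0, and its 186 CPM in female library 2 was far above the 6.88 to 29.7 CPM of the other 5 libraries. Il13, best known from type 2 responses, ranged from 0.33 to 57.8 CPM in cluster 4, against 0 to 1.24 CPM in cluster 0. Csf2, which encodes GM-CSF, reached 191 CPM in 1 library of cluster 4, but was lower than in cluster 0 in 1 of 6 libraries and was not called (log2 difference 1.21 ± 1.41). An antisense gene, Gm12223, overlaps Csf2.

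Other secreted factors varied in direction. Ccl1 and Ccl9 were called higher in cluster 4 (1.76 ± 1.11 and 1.28 ± 0.78), although Ccl9 averaged 0.99 without female library 5 and was then not called. Ccl5, a chemokine of memory and effector CD8 T cells, stood at 4907 to 6531 CPM in cluster 4 and 5883 to 7687 CPM in cluster 0, which overlap. Ltb, a membrane-anchored lymphotoxin subunit, was lower in cluster 4 at 157 to 344 CPM, against 465 to 633 CPM in cluster 0 (-1.31 ± 0.24). Csf1, the macrophage growth factor, was also called lower (-1.31 ± 0.52), while Fasl and Tgfb1 differed by 0.12 and -0.15.

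**Figure D2:**
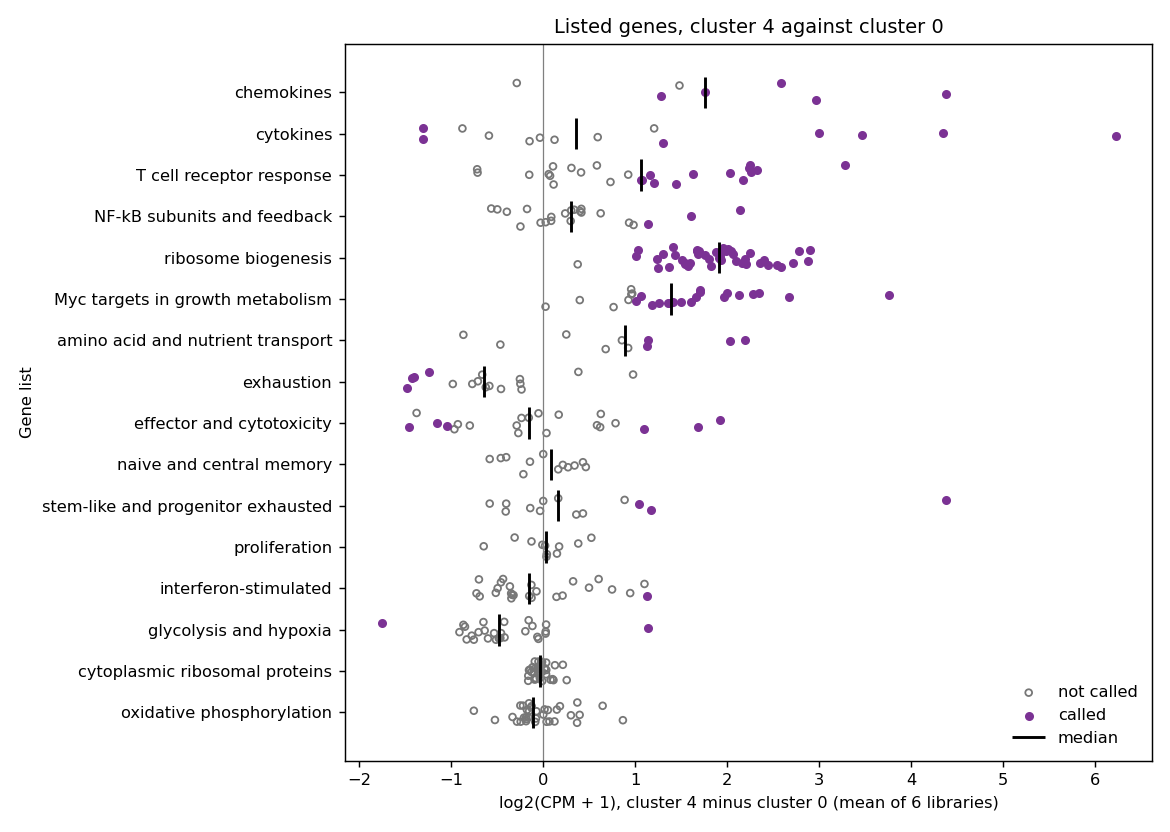
Log2 difference, cluster 4 minus cluster 0, of each measured member of 16 gene lists (x axis, mean of 6 libraries, filled where called), with the list median as a black line. The ribosome biogenesis list lies to the right of 0 as a whole with a median of 1.91, and the exhaustion list has a median of -0.64.

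Targets of antigen receptor signalling were higher in cluster 4 as well. Of 25 listed genes measured, 13 were called higher than in cluster 0 and 0 lower, with a median log2 difference of 1.06. Nr4a1, a nuclear receptor gene induced within the first hours of stimulation, stood at 358 to 423 CPM in cluster 4 and 65.4 to 103 CPM in cluster 0 (2.17 ± 0.23). Nr4a3 of the same family (2.25 ± 0.23) and Egr2, a zinc finger factor downstream of NFAT (2.32 ± 0.45), were close to it. Cd40lg, a costimulatory ligand best known on CD4 T cells, was present at 5.62 to 20.9 CPM in cluster 4 and 0.87 to 2.84 CPM in cluster 0 (2.26 ± 0.53), and Crtam, an adhesion molecule of activated CD8 T cells, at 86.7 to 162 CPM in cluster 4 and 17.0 to 31.8 CPM in cluster 0. Cd69 (0.93 ± 0.21) and Tnfrsf9, which encodes 4-1BB (0.41 ± 0.17), fell short of the call, and Tnfrsf4, which encodes OX40, was lower at -0.72 ± 0.30.

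Genes listed as feedback on receptor signalling lay on both sides of 0. Of 27 measured feedback genes, 1 was called higher and 0 lower, beside 6.16% and 2.45% over all genes, with a median log2 difference of 0.05. The call was Gadd45b (1.42 ± 0.23), a stress-induced activator of p38. Dgka and Ubash3a, a lipid kinase and a phosphatase-like protein that restrain the receptor, were at -0.79 and -0.71, and Socs1, an inhibitor of cytokine signalling, at 0.68. In the NF-kB pathway 3 of 22 genes were called higher, with a median of 0.30. These were Nfkbid, a nuclear IkB protein that works with c-Rel (a median of 193 CPM in cluster 4 and 45.8 CPM in cluster 0), and the subunits Nfkb1 (1.61 ± 0.14) and Rel (1.14 ± 0.20). Of 13 AP-1, BATF and IRF genes, Irf4, which scales with receptor strength (1.06 ± 0.09), and the stress factor Atf3 (1.39 ± 0.44) were called higher.

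Genes that respond to tissue digestion overlap with receptor targets. Of 22 measured heat shock and dissociation genes, 2 were called higher, Atf3 and the mitochondrial chaperone gene Hspd1 (1.5 ± 0.12), with a list median of 0.37. Fos was at 0.82 ± 0.73, Jun at -0.22 and the heat shock gene Hspa1a at -0.75 ± 0.24. The summed level of the list was 10232 to 11637 CPM in cluster 4 and 7038 to 8536 CPM in cluster 0, and its part in the receptor targets was not tested.

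Ribosome biogenesis gave the broadest difference. Of 45 listed genes, 44 were called higher in cluster 4 than in cluster 0 and 0 lower, with a median log2 difference of 1.91 against -0.04 over all genes. Rrs1, given with the cluster, was among the 44. Gnl3l was the member not called, at 0.38. The summed level of the list was 7438, 8376 and 9940 CPM in the lowest, median and highest library of cluster 4, against 2552, 2636 and 3057 CPM in cluster 0. The call counts of the list ran from 33 to 44 and its median from 1.71 to 1.97 over the 13 alternative settings, and the 33 were all of the 33 genes measured at a minimum of 50 CPM.

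The steps of ribosome making were represented together. Polr1b, a subunit of RNA polymerase I that transcribes ribosomal RNA, stood at 16.4 to 35.5 CPM in cluster 4 and 1.24 to 4.02 CPM in cluster 0 (2.90 ± 0.33). Nolc1, a nucleolar phosphoprotein, stood at 144 to 230 CPM in cluster 4 and 25.4 to 34.8 CPM in cluster 0 (2.58 ± 0.21). Gnl3, the GTPase nucleostemin, stood at 112 to 170 CPM in cluster 4 and 16.8 to 19.8 CPM in cluster 0 (2.89 ± 0.17). Assembly factors of the large subunit followed, with Nop16 at 2.78 ± 0.29 and Nop2, an RNA methyltransferase, at 2.54 ± 0.35. Genes for the finished parts were not higher: of 34 cytoplasmic ribosomal protein genes 0 were called in either direction, with a median of -0.04.

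Myc, a known driver of such genes, stood at 76.3, 96.4 and 111 CPM in the lowest, median and highest library of cluster 4, against 6.87, 9.07 and 10.5 CPM in cluster 0 (3.28 ± 0.16). The next cluster by Myc was cluster 7 with a median of 36.9 CPM. Of 26 listed targets of Myc in growth metabolism, 19 were called higher than in cluster 0 and 0 lower, with a median of 1.39. Srm, the spermidine synthase of polyamine production, stood at 99.6 to 143 CPM in cluster 4 and 6.22 to 10.6 CPM in cluster 0 (3.76 ± 0.15). Slc19a1, the folate carrier (2.67 ± 0.39), Apex1, a DNA repair endonuclease (2.34 ± 0.10), C1qbp, a mitochondrial matrix protein (2.28 ± 0.17), and Tfrc, the transferrin receptor for iron uptake (2.00 ± 0.20), were among them.

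Nutrient uptake went the same way in part. Of 10 measured transporter genes 4 were called higher, among them Slc7a5, the carrier of large neutral amino acids (26.1 to 50.2 CPM in cluster 4, 4.09 to 10.1 CPM in cluster 0), and Slc7a1, the arginine carrier (2.03 ± 0.24). The glucose transporter gene Slc2a3 was at -0.87 ± 0.19. Further genes with a large difference were Shmt1, an enzyme of folate metabolism (3.45 ± 0.43), Atad3a, a mitochondrial membrane ATPase (3.19 ± 0.27), Bcat1, a branched-chain amino acid transaminase (3.08 ± 0.55), and Pus7, a pseudouridine synthase (2.99 ± 0.33).

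Promoters of ribosome biogenesis genes were searched for the E-box CACGTG that Myc recognises. It was in 26.2% of 42 promoters (38 genes) of the ribosome biogenesis list and in 36.8% of 38 promoters (25 genes) of the Myc target list. The share was 7.15% of all promoters, which were not matched to the lists by base composition, and 0% of the cytokine and chemokine promoters. The Myc target list was made of genes named as targets of Myc, so its share is no separate evidence. A match is not a bound site, and the part of Myc was not tested. Among the members with large differences, Grwd1 (chr7:45830740-45831039, minus) and Nop2 (chr6:125131633-125131932, plus) carried it, and they are shown as above with the E-box in capitals.
Grwd1: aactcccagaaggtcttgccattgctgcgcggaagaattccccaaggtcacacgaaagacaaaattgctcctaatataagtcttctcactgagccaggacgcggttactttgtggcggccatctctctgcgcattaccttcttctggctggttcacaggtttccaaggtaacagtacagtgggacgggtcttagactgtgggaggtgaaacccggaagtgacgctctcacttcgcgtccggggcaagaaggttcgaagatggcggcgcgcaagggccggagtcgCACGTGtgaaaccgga
Nop2: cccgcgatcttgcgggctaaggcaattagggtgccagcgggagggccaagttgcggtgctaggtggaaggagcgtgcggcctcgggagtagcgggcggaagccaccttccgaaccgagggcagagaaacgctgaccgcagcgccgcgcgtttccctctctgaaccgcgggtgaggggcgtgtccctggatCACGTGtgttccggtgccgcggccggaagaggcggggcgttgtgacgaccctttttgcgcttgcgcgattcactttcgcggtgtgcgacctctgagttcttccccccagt
Grwd1, a histone-binding nucleolar protein, stood at 30.5 to 46.9 CPM in cluster 4 and 4.19 to 5.97 CPM in cluster 0 (2.72 ± 0.27). Each of these 2 promoters held 1 E-box, 1 NFAT core (not in capitals here) and no AP-1 motif.

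Genes of cell division were not among those called. Of 30 proliferation genes, 11 were measured against cluster 0 and 0 of them were called, with a median of 0.04. Mki67, a marker of cycling cells, stood at 8.69 to 19.9 CPM in cluster 4 and 13.8 to 21.0 CPM in cluster 0, which overlap. Against all other cells, which include the dividing clusters 3 and 5, 28 of 30 were called lower in cluster 4, with a median of -3.33. The replication genes Pcna and Mcm6 were at 0.38 and 0.15 against cluster 0.

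Some markers of exhaustion were lower than in cluster 0. Of 16 listed genes measured, 0 were called higher, 4 lower and 12 in neither direction, with a median log2 difference of -0.64. Cd160, an inhibitory receptor, and Eomes, a factor of memory and exhausted cells, were above 0 at 0.98 ± 0.22 and 0.38 ± 0.28. Lag3, an inhibitory receptor, stood at 198 to 421 CPM in cluster 4 and 560 to 956 CPM in cluster 0 (-1.24 ± 0.17). The ectoenzyme genes Entpd1 and Cd38 (-1.41 ± 0.20 and -1.48 ± 0.39) and the factor Maf (-1.43 ± 0.20) were the other calls. Pdcd1 stood at 314 to 438 CPM in cluster 4 and 416 to 596 CPM in cluster 0 (-0.46 ± 0.09), and Tox, a factor that maintains exhaustion, at 32.8 to 64.1 CPM in cluster 4 and 31.5 to 80.4 CPM in cluster 0. Neither of these was called, and the ranges overlap for both. Against cluster 7 the list had a median of 2.34.

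Cytotoxic genes split. Gzma stood at 995 to 2165 CPM in cluster 4 and 309 to 736 CPM in cluster 0 (1.69 ± 0.32), and Gzmm was at 1.93 ± 0.38. Klrd1, which encodes CD94 (-1.46 ± 0.19), Cst7, a protease inhibitor of cytotoxic granules (-1.16 ± 0.08), and Gzmk (-1.04) were called lower, so of 21 measured genes 3 were called in each direction. Gzmb, the main granule protease, stood at 2848 to 7260 CPM in cluster 4 and 1948 to 5735 CPM in cluster 0, which overlap. Zeb2, a factor of terminal effector cells, was higher in cluster 4 (1.10 ± 0.22). Of 27 glycolysis and hypoxia genes, 4 were positive, with a median of -0.48 and with Bnip3, a hypoxia-induced mitophagy receptor, lowest at -1.76 ± 0.34. Hk2, a hexokinase that Myc can induce, was the call in the other direction (1.14 ± 0.24).

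Genes that were lowest relative to cluster 0 are mostly little known in T cells. Nrgn, a calmodulin-binding protein best known from neurons, stood at 11.1 to 42.9 CPM in cluster 4 and 93.5 to 170 CPM in cluster 0 (-2.71 ± 0.64). Serpine2, a protease inhibitor (-2.59 ± 0.52), Rgs8, a regulator of G protein signalling (-2.53 ± 0.80), Aldoc, an aldolase (-2.46 ± 0.71), and Izumo1r, which encodes folate receptor 4 (-2.12 ± 0.19), were called as well. Izumo1r did not overlap between the clusters, with 3.89 to 6.88 CPM in cluster 4 and 19.0 to 35.4 CPM in cluster 0.

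Set against all other cells together, 300 genes (4.03% of 7443) were called higher in cluster 4 and 419 (5.63%) lower. Ribosome biogenesis had 37 of 45 genes called higher, with a median of 1.24, receptor targets 14 of 25, with 1.04, and chemokines 5 of 7, with 2.17. Rrs1, Ccl3 and Ccl4, given with the cluster, were among these calls. All genes had a median of -0.02. The granzyme genes Gzmd, Gzme and Gzmf were lowest, at -4.63, -4.84 and -4.69, and are genes of the granzyme-rich clusters 6 and 8. Cell survival genes split, with Bcl2 at -1.58 and Bcl2l1 at 1.19.

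**Figure D3:**
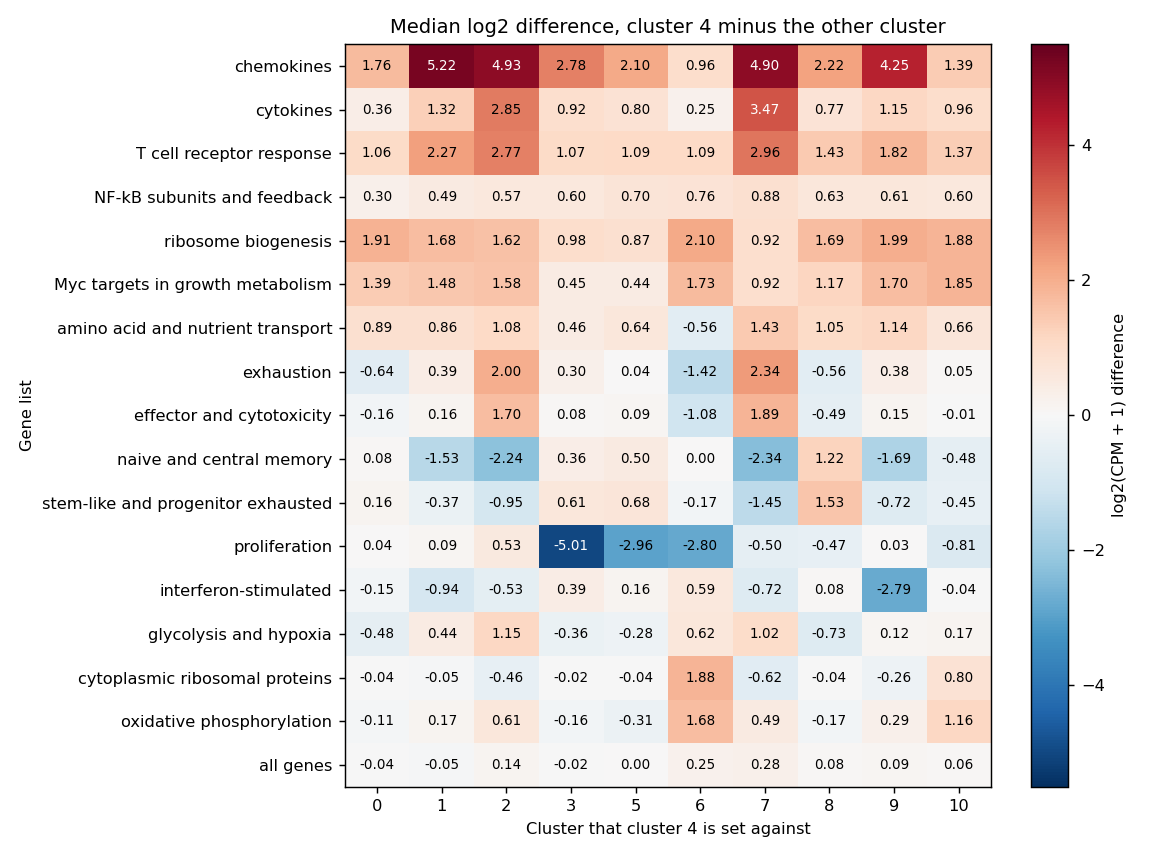
Median log2 difference of each gene list (rows) between cluster 4 and each of the 10 other clusters (columns), red where cluster 4 was higher. The rows for chemokines, receptor response, ribosome biogenesis and Myc targets are above 0 in every column, with 0.87 the lowest median for ribosome biogenesis (against cluster 5), while the exhaustion row runs from -1.42 to 2.34.

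The comparison was repeated against each of the 10 other clusters, as the map of list medians shows. The median for ribosome biogenesis was above 0 against each of them, from 0.87 against the dividing cluster 5 to 2.10 against cluster 6. Cluster 6 is rich in mitochondrial UMIs, and other lists were higher against it too. Cytoplasmic ribosomal proteins were at 1.88 and oxidative phosphorylation at 1.68, with mitochondrially encoded genes at -2.80. The next largest ribosome biogenesis median was 1.99, against cluster 9. For receptor targets the median ran from 1.06 against cluster 0 to 2.96 against cluster 7. For chemokines it ran from 0.96 against cluster 6 to 5.22 against cluster 1. Proliferation was lower than in clusters 3, 5 and 6, with -5.01, -2.96 and -2.80, and interferon-stimulated genes were lower than in cluster 9, with -2.79.

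A total of 57 genes were called higher in cluster 4 than in each of the 10 other clusters, and 1 was called lower than in each, of 6848 genes measured in all 10 comparisons (0.832% and 0.0146%). Il2, Ccl3, Ccl4 and Rrs1, given with the cluster, were among the 57, and Ifng was not. Set against the 8 clusters other than 6 and 10, 76 of 6894 genes were called higher (1.1%), Ifng among them, and 5 lower (0.0725%). A gene with a mean of at least 10 CPM in cluster 4 entered every comparison. A gene below that had to reach 10 CPM in each other cluster, so the numbers called higher and lower cannot be weighed against each other. Of the 57, 10 (17.5%) were members of the ribosome biogenesis list, which is 22.2% of that list. Members of the receptor target list made up 8, which is 30.8% of that list. The smallest of the 10 differences was 3.60 for Il2, 2.32 for Egr2, 2.25 for Il3, 2.21 for Nr4a3, 2.17 for Nr4a1, 2.11 for Ccl4 and 1.82 for Ccl3. It was 1.01 for Rrs1, just inside the limit. In all, 29 of the 57 belonged to no list. The lists do not hold every gene of their kind, so the counts by list are minimums. Among the 29, Cd24a, a surface glycoprotein gene, and Utf1, a chromatin factor gene known from embryonic stem cells, had the largest smallest difference. It was 2.19 and 1.85, at medians of only 12.8 and 30.5 CPM in cluster 4 (both chosen after their values were seen).

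Cluster 4 cells differed widely among themselves in what they transcribed. In 335 of 2442 cells (13.7%) at least 1 UMI of Il2 was found, and the 25 cells with the most held 60.2% of all Il2 UMIs, up to 462 in 1 cell. The 123 highest cells held 94.1%. Ccl4 was detected in 2311 cells, and its 25 highest cells held 8.11% of its UMIs. For Ifng that share was 22.5%, for Xcl1 24.5%, for Ccl3 13.96% and for Rrs1 6.61%, so Il2, with Il3 (88.4%), was the most uneven of the 7 genes examined.

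Shares of cells were compared at equal depth by thinning each cell to 3000 UMIs, which left out 76 shallower cells of cluster 4, 128 of cluster 0 and 65 of cluster 7. Il2 was then detected in 8.18 ± 3.10% of cluster 4 cells (SD over 6 libraries), 0.95 ± 0.22% of cluster 0 cells and 0.81 ± 0.98% of cluster 7 cells. Without thinning the share was 12.6% in cluster 4, 2.74% in cluster 0 and 1.89% in cluster 7, at median depths of 9648, 9163 and 7465 UMIs for clusters 4, 0 and 7. Cluster 7 is set beside them as a cluster low in Il2, and the share in cluster 0 was close to it. How much of these shares was free RNA was not tested.

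Other genes were detected far more widely. Ccl4 was in 87.9 ± 3.49% of thinned cluster 4 cells, 59.8 ± 2.41% of cluster 0 cells and 13.3 ± 3.51% of cluster 7 cells. Ccl3 was in 66.7 ± 8.23% of cluster 4, 32.6 ± 5.04% of cluster 0 and 4.51 ± 1.89% of cluster 7 cells. Without thinning, Ccl4 was in 94.4% of cluster 4, 78.4% of cluster 0 and 29.9% of cluster 7 cells, and Ccl3 in 77.7% of cluster 4, 49.5% of cluster 0 and 10.3% of cluster 7 cells. The gap to cluster 7 was wide for both chemokines at either depth. Ifng was in 65.8 ± 7.95% of thinned cluster 4 cells against 45.8 ± 3.96% in cluster 0 and 5.91 ± 1.37% in cluster 7 (81.3% in cluster 4, 68.9% in cluster 0 and 13.4% in cluster 7 without thinning). Nr4a1 was in 54.3 ± 3.92% of cluster 4, 18.1 ± 2.84% of cluster 0 and 7.60 ± 2.02% of cluster 7 cells (79.5%, 38.4% and 15.8% for clusters 4, 0 and 7 without thinning). Myc was in 19.7 ± 2.51% of cluster 4, 2.20 ± 0.65% of cluster 0 and 9.18 ± 2.81% of cluster 7 cells (40.6%, 6.43% and 19.96% for clusters 4, 0 and 7 without thinning). Every library of cluster 4 was above every library of cluster 0 for each of these genes.

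**Figure D4:**
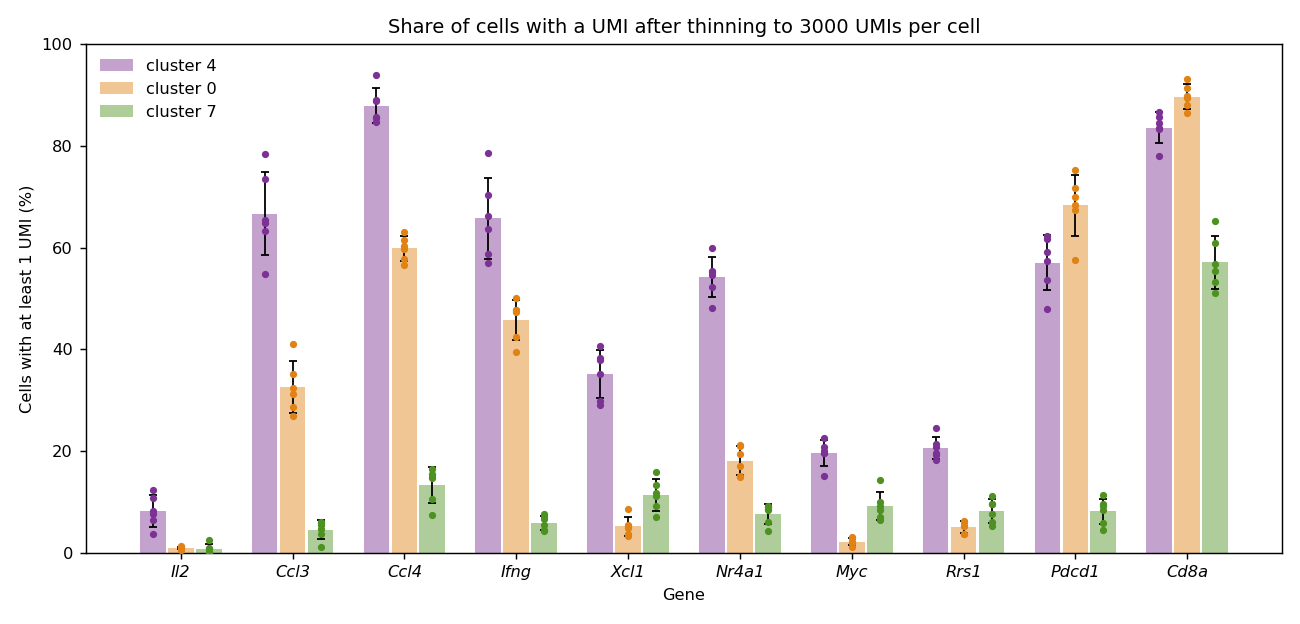
Share of cells with at least 1 UMI of a gene after thinning to 3000 UMIs per cell, in cluster 4, cluster 0 and cluster 7 (bars are means and error bars SDs over 6 libraries, points are libraries). Il2 was found in 8.18% of cluster 4 cells and Ccl4 in 87.9%, while Pdcd1 and Cd8a were found in a larger share of cluster 0 cells.

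Cells with an Il2 UMI held more of the other secreted products. At equal depth, 211 cells of cluster 4 had Il2 and 2155 had none. Ifng was detected in 92.4% of the 211 cells and in 63.6% of the 2155. Of the cells with Il2, 91.9% held Ccl3, 60.7% Xcl1, 27.5% Tnf and 21.8% Csf2, and of those without it 63.6% held Ccl3, 33.3% Xcl1, 9.65% Tnf and 3.06% Csf2. For each of these genes the cells with Il2 were higher in 6 of 6 libraries. Nr4a1 was detected in 80.6% of the cells with Il2 and 51.7% of those without. Pdcd1 was detected in 54.0% of the cells with Il2 and 58.0% of those without, and was higher in the cells with Il2 in 2 of 6 libraries. Rrs1 was detected in 25.6% of the cells with Il2 and 20.3% of those without.

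Ccl3, Ccl4 and Ifng varied together from cell to cell. Over the 2366 thinned cells, which share libraries and depth, Spearman's rho was 0.71 for Ccl3 and Ccl4, 0.72 for Ccl3 and Ifng and 0.56 for Ccl4 and Ifng, with 0.66 to 0.75, 0.60 to 0.78 and 0.47 to 0.59 within libraries. It was -0.01 between the sum of these 3 genes and the sum of the ribosome biogenesis list, with -0.07 to 0.15 within libraries. Nr4a1 and Ccl4 had a rho of 0.41, and Pdcd1 and Ccl3 of 0.00. The cells with Il2 held 28.0 ribosome biogenesis UMIs on average and the others 25.3.

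The study set male against female hosts. Cluster 4 made up 7.87%, 6.03% and 9.82% of the cells in male libraries 1, 3 and 4, and 12.4%, 9.83% and 9.38% in female libraries 2, 5 and 6. Exact binomial intervals at 95%, which cover counting error only, ran for instance from 5.24% to 6.90% for male library 3 and from 11.3% to 13.7% for female library 2. The mean share was 7.91 ± 1.90% in males and 10.6 ± 1.66% in females (SD, n = 3 each). The groups overlapped, and the difference did not pass (edgeR quasi-likelihood test on cell counts, log2 ratio -0.41, SE 0.23, adjusted p = 0.125 over the 11 clusters). An exact two-sided permutation test gave p = 0.20, where the smallest it can give with 20 assignments is 0.10.

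Within cluster 4, 10 of 9499 genes differed between the sexes at an adjusted p under 0.05 (edgeR quasi-likelihood test, Benjamini-Hochberg adjustment), 4 higher in males (0.0421%) and 6 lower (0.0632%). All but 1 were genes of the sex chromosomes. The Y-linked genes Ddx3y, Eif2s3y, Kdm5d and Uty were detected in male libraries alone, with 1561, 1347, 271 and 264 UMIs and each with 0 in females. Xist, the RNA that silences an X chromosome in female cells, had 1 UMI in males and 8929 in females, and Tsix, which lies antisense to Xist and cannot be told apart from it without stranded counting, had 2 UMIs in males and 141 in females. Kdm6a stood at 27.0, 21.9 and 25.3 CPM in males and 41.5, 43.7 and 42.4 CPM in females (log2 fold change -0.79, SE 0.13, adjusted p = 0.0177). Eif2s3x (-0.78, adjusted p = 0.0190) and Kdm5c (-0.72, adjusted p = 0.0433), which also escape silencing, were lower in males, and the ranges of the sexes did not overlap for any of these 3.

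Hmox1, which encodes the haem-degrading enzyme haem oxygenase 1 (chromosome 8, 75093621 to 75100589), was the autosomal call. It stood at 5.74, 9.54 and 8.09 CPM in male libraries 1, 3 and 4 and at 14.9, 17.0 and 17.3 CPM in female libraries 2, 5 and 6, from 115 and 216 UMIs. The groups were apart (log2 fold change -1.14, SE 0.20, adjusted p = 0.0409). The call was lost with limma-voom (adjusted p = 0.0540), in thinned cells (0.831) and without male library 1 (0.481), male library 4 (0.157), female library 2 (0.171) or female library 5 (0.184). Myeloid cells also express Hmox1: the 18 myeloid markers summed to 25.1 to 28.9 CPM in males and 29.4 to 58.5 CPM in females, with 1 of 5 tested members higher in males, and with Clec9a at 0 in both sexes and Csf1r and Flt3 at 0 in females. Their part in the Hmox1 result was not tested.

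Il2, Ccl3, Ccl4 and Rrs1 did not pass between the sexes. Il2 stood at 179.9, 397 and 402 CPM in males and 548, 263 and 104 CPM in females (log2 fold change 0.03, SE 0.76, adjusted p = 0.999), and the male values lay within the female range. Ccl3 stood at 2485, 4886 and 4202 CPM in males and 6717, 4304 and 4454 CPM in females (-0.44, SE 0.37, adjusted p = 0.986). Ccl4 (-0.10, SE 0.16) and Rrs1 (0.11, SE 0.11) had an adjusted p of 0.986 as well. Of all genes tested, 431 had an unadjusted p under 0.05.

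Those nearest to the threshold are given as not passing. Klra6, a Ly49 receptor gene, had 11.5, 6.36 and 3.90 CPM in males and 0.97, 1.54 and 1.30 CPM in females (adjusted p = 0.101). Natural killer and innate-like markers summed to 828 to 1337 CPM in males and 700 to 1023 CPM in females, mostly Xcl1, with 5 of 7 tested members higher in males and Ncr1 and Klra8 at 0 in females, and their part in this was not tested. Acp5, an acid phosphatase (0.67, adjusted p = 0.219), Klf3, a factor of resting lymphocytes (0.79, adjusted p = 0.328), and Pde2a (1.23, adjusted p = 0.338) were next among those higher in males. Cbfa2t3 (-1.95), Ier3 (-0.64) and S100a4 (-0.49), each with an adjusted p of 0.338, were next among those lower in males.

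**Figure D5:**
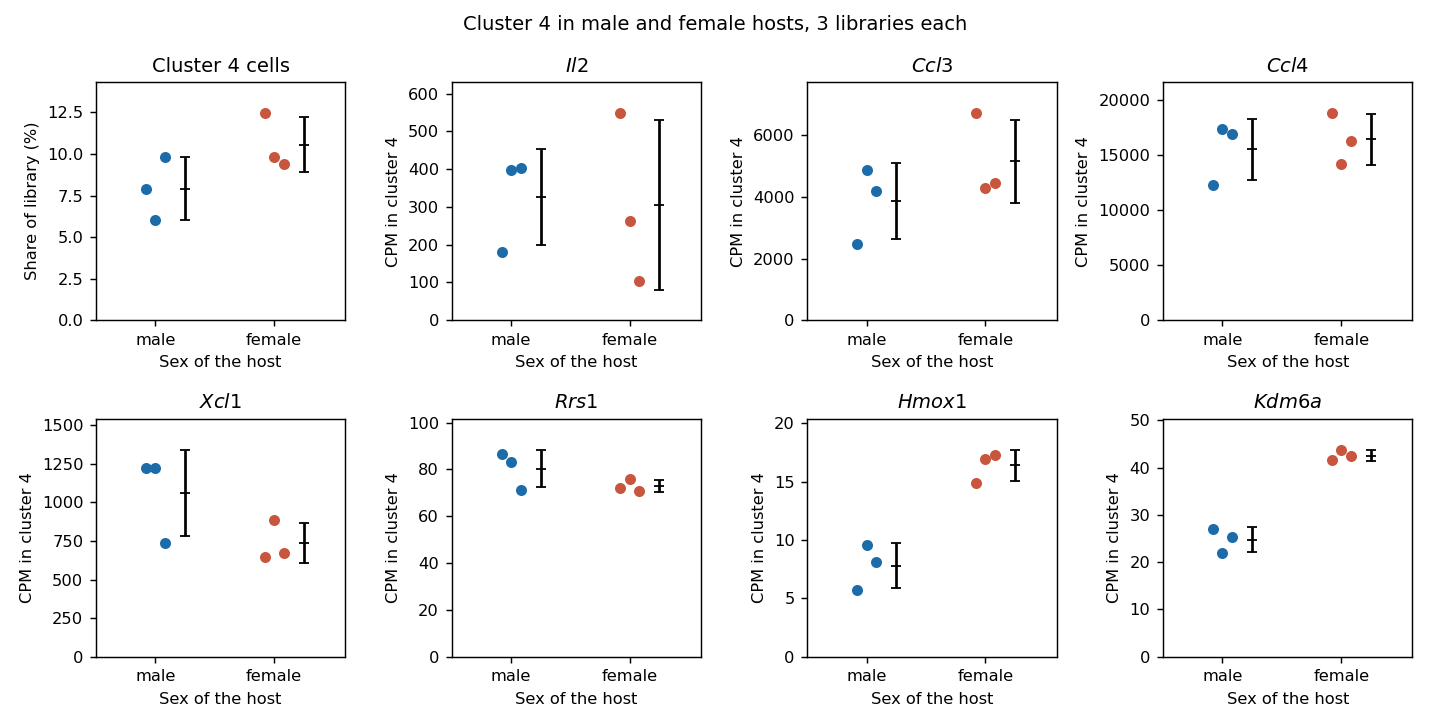
Share of cells in cluster 4 (%) and level of 7 genes in cluster 4 (CPM) in the 3 male and 3 female libraries (points), with mean and SD in black. Hmox1 and Kdm6a are apart between the sexes, at 5.74 to 9.54 CPM against 14.9 to 17.3 CPM for Hmox1, while Il2, Ccl3, Ccl4 and Xcl1 overlap.

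Lists were read by their medians, beside 0.00 over all 9499 genes, of which 4735 were higher in males. Of 45 ribosome biogenesis genes 42 were higher in males, with a median log2 fold change of 0.15 and 0 called. Of 16 cytokine genes 4 were higher in males, with a median of -0.22, and of 10 chemokine genes 3, with -0.20. Of 29 glycolysis and hypoxia genes 1 was higher in males, with a median of -0.26. Of 14 stem-like genes 12 were higher in males (0.33), and of 13 naive and memory genes 11 (0.43). No member of these lists was called. The summed level of each of these lists overlapped between the sexes. For ribosome biogenesis it was 8161 to 9940 CPM in males and 7438 to 8930 CPM in females. For glycolysis and hypoxia it was 7880 to 9080 CPM in males and 8884 to 10226 CPM in females. Further lists were one-sided as well, with 0 called. Higher in males were 32 of 34 cytoplasmic ribosomal protein, 27 of 33 interferon-stimulated, 19 of 23 proliferation and 4 of 34 oxidative phosphorylation genes. The cytoplasmic ribosomal protein sums were apart, at 130328 to 134173 CPM in males and 120328 to 128478 CPM in females. Genes of a list share libraries, so these counts are not independent.

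Whether a sex difference was larger in cluster 4 than elsewhere was tested in models with the library as a block. Against cluster 0, 2 of 10380 genes passed (0.0193%), both with a lower male minus female difference in cluster 4, and 0 passed the other way (0%). Fam46a, which encodes a poly(A) polymerase, stood at 60.1, 72.7 and 80.5 CPM in males and 83.5, 95.3 and 70.1 CPM in females in cluster 4, and at 132, 133 and 147 CPM in males and 110, 121 and 101 CPM in females in cluster 0. The difference between the sex differences was -0.55 (SE 0.09, adjusted p = 0.0266, edgeR quasi-likelihood test). Serpinb1a, an inhibitor of neutrophil-type serine proteases, had -0.66 (SE 0.11, adjusted p = 0.0266). Its values were 25.1, 69.5 and 64.7 CPM in males and 92.0, 73.5 and 49.3 CPM in females in cluster 4, which overlap. Both calls were lost with DESeq2, limma-voom, filtered cells and thinned cells and without male library 1, male library 4, female library 2 or female library 5, and that of Fam46a also without male library 3.

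Against all cells outside clusters 2 and 4, 0 of 11427 genes passed in either direction (0%), with 603 at an unadjusted p under 0.05, and 1 passed with DESeq2, 1 with limma-voom, 2 in thinned cells and 13 without female library 6. Il2 had a difference of -0.47 (adjusted p = 0.958) there and -0.16 against cluster 0, Ccl3 0.10 and 0.18, and Ccl4 0.05 and 0.10. Tyrobp, an adaptor of innate receptors, had the smallest p, with 1.55 and an adjusted p of 0.170.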

How the data were processed

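Single-cell RNA sequencing measured CD8 T cells from MB49 tumours of 3 male and 3 female hosts. The deposited table holds raw counts of UMIs for 15601 genes and 26698 cells, made with Cell Ranger, Seurat and build mm10, per the submitters' processing notes, with no versions. Cluster numbers and host sex came from the deposited metadata. The sources used here do not state cell filters, doublet treatment or the strand setting of counting, and no doublets were removed.

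Libraries were told apart by the number that follows a cell's barcode (1, 3 and 4 male, 2, 5 and 6 female). UMIs were summed per library and cluster. Sums were compared between the sexes with the quasi-likelihood test of edgeR 4.0.16 (robust, filterByExpr, TMM, Benjamini-Hochberg adjustment over all genes tested, threshold 0.05) in R 4.3.3, with the library as a block for interactions. DESeq2 1.42.0 and limma-voom (limma 3.58.1) were alternatives, and the code was tested on simulated data. Differences between clusters used log2(CPM + 1), which understates low genes, in Python 3.11.15, for genes with a mean of at least 10 CPM. Cells were thinned by random draws without replacement. Positions came from GENCODE M21 and promoters from RefSeq (GRCm38.p6). CPM of 3' counts are compared within a gene.

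Named genes were the 4 markers, listed cytokines and chemokines with at least 5 CPM, up to 12 genes a direction by size against cluster 0 and 6 against all other cells, up to 6 members of each further list with those in another list, and for the sexes the label checks, up to 12 called and 5 uncalled genes a direction, and 5 genes an interaction. Genes outside it, among them Pdcd1, Tox, Eomes, Gzmb, Gzmk, Cd69, Tnfrsf9, Tnfrsf4, Jun, Gnl3l, Cd24a and Utf1, were chosen with their values known. Members and lists were chosen with earlier results of these data known.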

Additional observations from a re-analysis of the deposited data

Results flagged for a closer look

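The sex difference of Fam46a in cluster 4 differed from that in cluster 0 by -0.55 (log2, male minus female, SE 0.09, adjusted p = 0.0266, edgeR interaction test). It was -0.26 in cluster 4, where the sexes overlapped. That of Serpinb1a differed by -0.66 (SE 0.11, adjusted p = 0.0266) and was -0.52 in cluster 4. The directions of both held in every alternative, while the calls did not.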

How the results depend on the processing

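No paired analysis was possible because the library numbers of the cells could not be tied to the replicate numbers of the labels. Genes called between the sexes in cluster 4 (10) became 23 with no filter on low counts, and 6 (without male library 1) to 20 (without female library 6) when a library was left out. The 2 calls of the interaction with cluster 0 became 0 with DESeq2, 0 with limma-voom, 0 in filtered cells (at least 2000 UMIs, at most 10% mitochondrial), 0 in thinned cells and 38 with no filter, and 0 to 11 without a library (11 without female library 6). Against the other clusters 0 calls became 1 with DESeq2, 1 with limma-voom, 2 in thinned cells and 22 with no filter, and 0 to 13 without a library (13 without female library 6). The share of cells kept its direction and its side of the threshold in the alternatives run. Genes higher in cluster 4 than in cluster 0 (448) numbered 227 at a minimum of 50 CPM. Genes lower (178) numbered 93 with a pseudocount of 5 CPM, 291 at a minimum of 2 CPM, 60 at a minimum of 50 CPM and 313 in thinned cells. Ifng was found in 75.2% of cells thinned to 5000 UMIs. The sex difference of Il2 was -0.0042 in filtered and -0.092 in thinned cells and -0.38 to 0.81 without a library, that of Ccl4 -0.21 to 0.057, of Ddx3x -0.44 to 0.043, of Pbdc1 -0.17 to 0.015 and of Utp14a -0.077 to 0.11. The interaction of Tyrobp was -0.32 in thinned cells. Causes were not tested, save that fewer genes or cells enter under stricter minimums. With 1 library left out, a sex keeps 2 libraries.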
